A study of Mus musculus with 2 samples.

Results

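The genes described here are 10 components of the Wnt and R-spondin pathway that patterns the adrenal cortex: the ligand Wnt4, the R-spondins Rspo1 and Rspo3, the receptors Lgr4 and Lgr5, the ubiquitin ligases Znrf3 and Rnf43, the effector Ctnnb1, the target gene Axin2 and the transcription factor Lef1. They were chosen by symbol, and all 10 were found among the 55536 annotated genes of the count tables. Total RNA of adrenal gland tissue was sequenced from male B6CASTF1/J mice, a first-generation cross of a C57BL/6 strain with the wild-derived CAST strain, that were 25 days old. The 2 libraries, replicate 1 and replicate 2, form a single group, and each was made from 300 ng of RNA with ERCC spike-in transcripts added, ribosomal RNA reduced and a directional kit used. No treatment or mutation is named in the labels, and no conditions are compared: the values below are levels in this tissue and differences between its 2 libraries. Replicate 1 is animal 3 and replicate 2 is animal 4 by the biosample labels, but the labels of the libraries put animal 3 on both and the donor label is the same, so the spread between the libraries may be partly technical.

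Wnt proteins bind Frizzled receptors and LRP co-receptors, which stops the destruction complex from degrading beta-catenin and lets beta-catenin act with TCF/LEF factors on target genes. The ligases ZNRF3 and RNF43 remove Frizzled from the cell surface, and R-spondins, bound to LGR4 or LGR5, take the ligases away and so strengthen the signal. In the mouse adrenal, R-spondins come from the capsule and Wnt4 from the outer cortex, where the pathway maintains the zona glomerulosa, the zone that makes aldosterone, against the inner zona fasciculata, which makes corticosterone. Each library here mixes all zones of the gland with the medulla and neighbouring tissue, so fewer cells of a type and less RNA per cell cannot be told apart.

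The libraries held 35283841 expected counts (replicate 1) and 35156690.03 (replicate 2), and the 10 genes held from 70 counts in replicate 1 against 64 in replicate 2 (Rspo1) to 20716 in replicate 1 and 15138 in replicate 2 (Ctnnb1). Of the markers listed for the gland, 8 of 8 zona glomerulosa genes, 4 of 4 zona fasciculata genes, 5 of 5 medulla genes and 6 of 7 capsule and stroma genes were detected, meaning a level of at least 1 TPM in both libraries; TPM is a level per transcript length, relative to all RNA counted in the library. Liver and skeletal muscle RNA was present unequally. The summed level of 6 liver genes was 27.5 TPM in replicate 1 against 20468 TPM in replicate 2, with the albumin gene Alb at 16.3 TPM in replicate 1 against 11949 TPM in replicate 2. That of 6 skeletal muscle genes was 1152 and 1.78 TPM in replicates 1 and 2. The 6 fat genes summed to 2381 and 1697 TPM, the 3 blood genes to 3914 and 2482 TPM and the 6 endothelial genes to 221 and 178 TPM in replicates 1 and 2. By the test and TMM scaling described below, all 6 fat genes were higher in replicate 1, with a median log2 ratio of 0.16. Of the 3 blood genes 2 were higher and 1 lower. Of the 6 endothelial genes 3 were higher and 3 were neither, with a median of 0.07. None of 5 kidney genes was detected, and they summed to 0.51 and 0.5 TPM in replicates 1 and 2. Umod and Slc34a1 had 0 counts in both libraries. Lrp2 had 60 counts in replicate 1 against 111 in replicate 2, and Aqp2 had 18 against 12.

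The levels of the 10 genes spanned a wide range in the gland, with Ctnnb1 at the top and Rspo1 at the bottom. By mean level the order was Ctnnb1, Lgr4, Wnt4, Axin2, Znrf3, Lgr5, Lef1, Rnf43, Rspo3 and Rspo1. The libraries' values overlapped for the neighbours Znrf3 and Lgr5, and for Rnf43 and Rspo3, so the order within these pairs is not resolved by the spread. A second quantification that the authors deposited gave higher TPM for each of the 10 genes in both libraries, and in it the values of Lef1 also overlapped those of Rspo3 and Rnf43. All 10 genes were detected, against 40 of 69 other pathway genes. Among all nuclear protein-coding genes, 12734 of 22015 had a mean over the libraries of at least 1 TPM, a slightly looser measure. The 10 genes were chosen with earlier results of these data known, so their count cannot be read against that share.

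**Figure D1:**
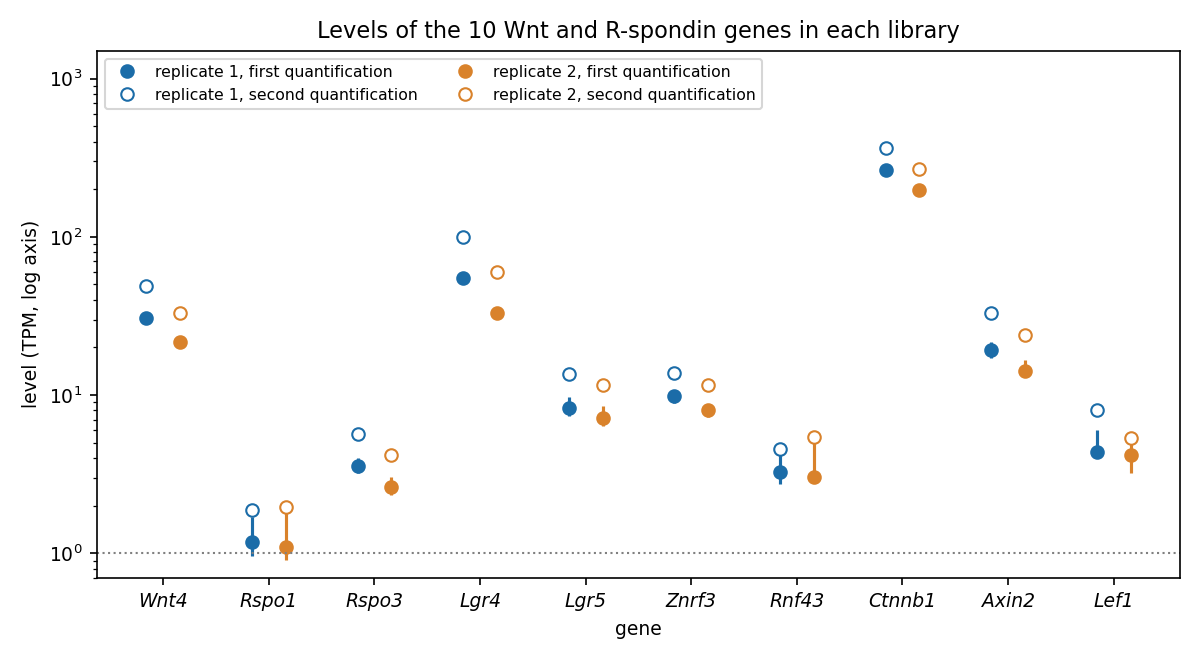
Level of each gene in TPM on a log axis, in replicate 1 (blue) and replicate 2 (orange). Filled points are the first quantification, with the authors' deposited credibility interval (level not stated) as a vertical line, open points are the second, and the dotted line marks the detection minimum of 1 TPM; Ctnnb1 lies at 266 TPM in replicate 1 against 197 TPM in replicate 2, and Rspo1 at 1.18 and 1.09 TPM.

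Among the ligands, Wnt4 was the most abundant Wnt gene in both libraries. Wnt4 (ENSMUSG00000036856.4, mm10 chr4:137277489-137299726, plus strand), the ligand of the outer cortex, was at 30.8 TPM in replicate 1 against 21.6 TPM in replicate 2, a mean of 26.2 ± 6.55 TPM (SD, n = 2) and rank 2592 of 22015 nuclear protein-coding genes. It held 57.0% of the summed TPM of 19 Wnt genes in replicate 1 and 54.6% in replicate 2, or 55.8 ± 1.69% (SD, n = 2). Both libraries thus put more than all other Wnt genes together on Wnt4. Wnt5a, a ligand known mainly for signalling without beta-catenin, followed with 25.8% in replicate 1 and 25.7% in replicate 2. The log2 ratio of Wnt4 TPM over Wnt5a TPM was 1.14 in replicate 1 and 1.09 in replicate 2. Wnt2b, a ligand of the beta-catenin branch, held 9.39% in replicate 1 and 6.91% in replicate 2. Of the 19 Wnt genes 3 were detected, and Wnt3a, Wnt7a and Wnt8a had 0 counts in both libraries of the first quantification, while the second put 0.0623% of the Wnt TPM on Wnt8a in replicate 1 and 0.0448% in replicate 2. For the first, the 3 counts that a count of 0 allows correspond to 0.033 TPM for Wnt3a in replicate 1 and 0.0332 TPM in replicate 2. They correspond to 0.076 and 0.0766 TPM for Wnt7a, and to 0.0533 and 0.0537 TPM for Wnt8a. The authors' credibility interval (level not stated) reached higher for Wnt7a, to 0.701 TPM in replicate 1 and 0.719 TPM in replicate 2.

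Between the R-spondins, the RNA of Rspo3 was the more abundant. Rspo3 (ENSMUSG00000019880.10, chr10:29452416-29535867, minus strand), the R-spondin of the mouse adrenal capsule, was at 3.57 TPM in replicate 1 against 2.64 TPM in replicate 2. Rspo1 (ENSMUSG00000028871.7, chr4:124986430-125009099, plus strand), known for its role in ovary development and also made in the capsule, was at 1.18 TPM in replicate 1 against 1.09 TPM in replicate 2. Rspo3 was higher than Rspo1 in each library, by 1.60 on the log2 scale in replicate 1 and 1.28 in replicate 2. Rspo3 made up 75% of the summed R-spondin TPM in replicate 1 and 68.6% in replicate 2, with a mean of 71.8 ± 4.55% (SD, n = 2). Of the other R-spondins, Rspo2 had 1 count in replicate 1 and 0 in replicate 2, and Rspo4 had 0 counts in replicate 1 against 9 in replicate 2. The authors' credibility interval for Rspo1 ran from 0.956 to 1.70 TPM in replicate 1 and from 0.902 to 1.80 TPM in replicate 2, so its place above the detection minimum is not firm at this depth.

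Lgr4 carried most of the R-spondin receptor RNA. Lgr4 (ENSMUSG00000050199.13, chr2:109917647-110014257, plus strand), a receptor expressed in many tissues, was at 54.7 and 33.2 TPM in replicates 1 and 2, a mean of 43.9 ± 15.2 TPM (SD, n = 2). Lgr5 (ENSMUSG00000020140.15, chr10:115450311-115587780, minus strand), a receptor known as a stem cell marker in the intestine and itself a Wnt target, was at 8.31 TPM in replicate 1 against 7.18 TPM in replicate 2. The 2 genes did not overlap: Lgr4 held 85.5% of the receptor TPM in replicate 1 and 80.1% in replicate 2, and Lgr5 held 13.0% in replicate 1 and 17.3% in replicate 2. Lgr6, the third gene of the family, was at 0.98 TPM in replicate 1 against 1.07 TPM in replicate 2.

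Of the ligases that clear Frizzled from the membrane, Znrf3 was the more abundant in both libraries. Znrf3 (ENSMUSG00000041961.14, chr11:5276324-5444847, minus strand), whose loss in the mouse adrenal cortex is known to cause overgrowth, was at 9.88 and 8.10 TPM in replicates 1 and 2. Rnf43 (ENSMUSG00000034177.15, chr11:87662722-87735539, plus strand), its paralog, was at 3.28 TPM in replicate 1 against 3.04 TPM in replicate 2. Znrf3 thus held 75.1% of the pair's TPM in replicate 1 and 72.7% in replicate 2, a mean of 73.9 ± 1.67% (SD, n = 2). The Rnf43 level rests partly on very short transcripts, which are described with the transcripts.

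Ctnnb1 was at the highest level of the 10 genes. Ctnnb1 (ENSMUSG00000006932.17, chr9:120929216-120960507, plus strand), which encodes beta-catenin, a protein of cell junctions as well as the effector of the pathway, was at 266 TPM in replicate 1 against 197 TPM in replicate 2. Its mean of 232 ± 48.6 TPM (SD, n = 2) ranked 196 of 22015 nuclear protein-coding genes. Lef1 (ENSMUSG00000027985.14, chr3:131110471-131224356, plus strand), a DNA-binding partner of beta-catenin, was at 4.34 and 4.20 TPM in replicates 1 and 2. It was a minor member of its family, with 14.2% of the TCF/LEF TPM in replicate 1 and 14.4% in replicate 2. The second quantification gave it 14.2% in replicate 1 and 10.6% in replicate 2. In the first, the Lef1 level of replicate 2 rests partly on a very short transcript, which is described with the transcripts. Tcf7 held 47.0% in replicate 1 and 37.3% in replicate 2, and Tcf7l2 held 27.3% in replicate 1 and 35.4% in replicate 2; both are TCF family DNA-binding proteins.

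**Figure D2:**
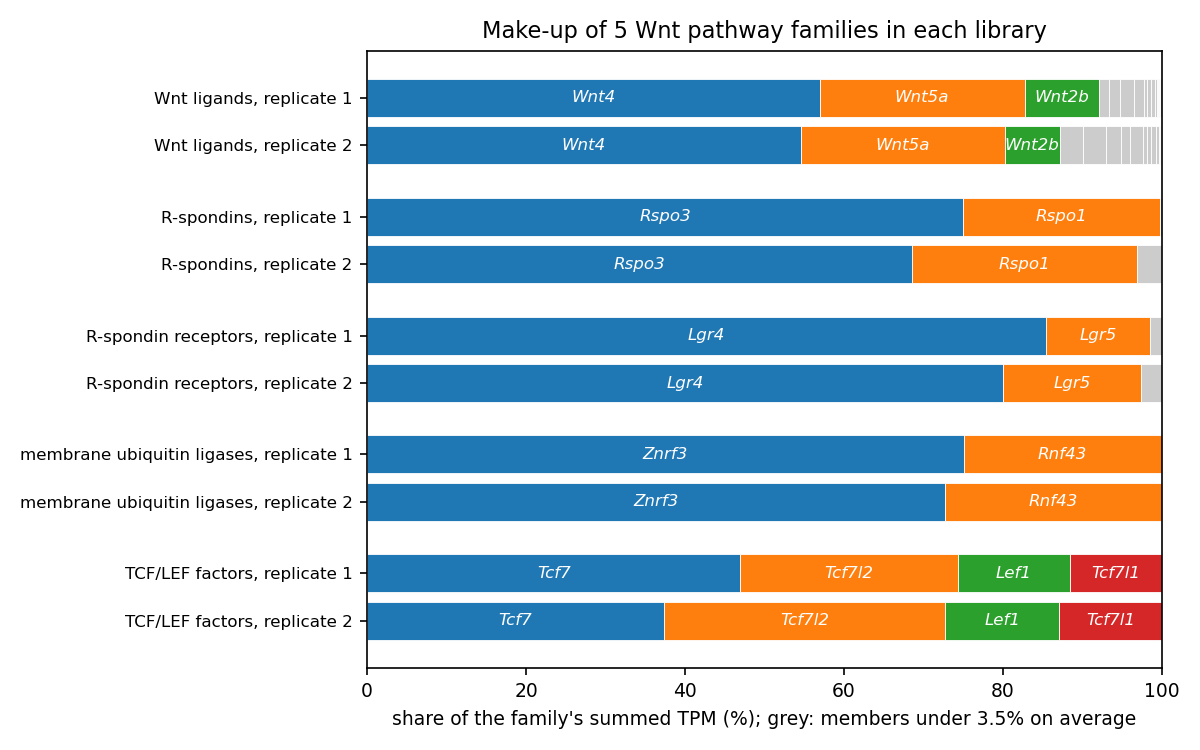
Share of each family's summed TPM on its members, in percent, with replicate 1 above replicate 2 in each family; grey segments are members under 3.5% on average. Wnt4, Rspo3, Lgr4 and Znrf3 hold the longest bars of their families in both libraries, at 55.8%, 71.8%, 82.8% and 73.9% on average, and Lef1 holds 14.3%.

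Axin2 (ENSMUSG00000000142.15, chr11:108920349-108950783, plus strand), a scaffold of the destruction complex whose transcription is switched on by beta-catenin and which serves as a readout of the pathway, was at 19.3 TPM in replicate 1 against 14.2 TPM in replicate 2. Its paralog Axin1, which is not known as a general target, was at 11.3 TPM in replicate 1 against 9.03 TPM in replicate 2. Axin2 was the higher of the pair in both libraries, by 0.78 on the log2 scale in replicate 1 and 0.65 in replicate 2. The second quantification gave a mean of 0.76. In the first, part of the Axin2 level rests on short coding transcripts. Axin2-207 (477 nt) held 2.44% and 1.97% of the gene's counts in replicates 1 and 2, but 16.7% and 13.7% of its TPM. The longest, Axin2-201, alone had 10.5 (replicate 1) and 8.07 TPM (replicate 2), below the Axin1 gene level of each library. Transcripts of Axin1 were not compared, so the order without short transcripts is not resolved.

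The promoters of Axin2 and Lef1, both known as targets of beta-catenin, are shown because they are where letters bound by TCF/LEF factors would be looked for. Each sequence is the 250 bases before the RefSeq transcription start (GRCm38.p6, plus strand), for Axin2 at chr11:108920099-108920348 and for the first of 4 Lef1 entries at chr3:131110047-131110296. Capitals mark the letters CTTTG on either strand.
Axin2: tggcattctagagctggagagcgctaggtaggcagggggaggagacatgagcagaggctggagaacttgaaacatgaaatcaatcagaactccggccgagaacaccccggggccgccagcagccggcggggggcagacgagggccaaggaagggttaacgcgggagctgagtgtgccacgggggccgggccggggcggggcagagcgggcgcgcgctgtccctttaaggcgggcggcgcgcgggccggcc
Lef1: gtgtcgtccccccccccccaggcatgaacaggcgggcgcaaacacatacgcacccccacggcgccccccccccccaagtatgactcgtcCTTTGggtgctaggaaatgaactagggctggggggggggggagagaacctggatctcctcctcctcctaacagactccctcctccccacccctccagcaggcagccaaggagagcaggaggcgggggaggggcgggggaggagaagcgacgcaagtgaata
RefSeq promoters were matched for 7 of the 10 genes by symbol, giving 12 entries, and Rspo3, Lgr5 and Znrf3 had none. CTTTGAT and CTTTGTT were the forms of the TCF/LEF recognition sequence that were searched. Neither occurred on either strand of any of the 12 entries, while 8.06% of the 32851 promoters in the table held a match. The shorter CTTTG, which both of these contain and which was searched after the first result was seen, occurred in 4 entries, all of Lef1, against 48.6% of all promoters. By gene this was 1 of the 7. Entries 1 and 2 of Lef1 overlap, as do those of Ctnnb1, so the 12 entries are not separate sequences. These counts describe these 250 bases and these letters only, and other full forms of the recognition sequence were not searched. The G and C content was 69.2% for the Axin2 promoter and 66.4% for the Lef1 promoter shown, against a median of 52.4% over the table.

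The expected counts, which are the reads that the authors' first quantification assigned to each gene, were compared between the libraries after TMM scaling, which sets the typical gene to a ratio near 1. With 1 library on each side the exact binomial test compares these libraries only, and its intervals cover counting error only. Of the 10 genes 5 differed between the libraries at an adjusted p under 0.05, and across all 19801 genes tested 39.1% did. Of the 10, 4 were higher in replicate 1, against 18.4% of all genes tested, and 1 was lower, against 20.7%. None of the 10 was at least 2-fold apart, against 14.2% of all genes tested. The 10 genes all have a mean of at least 1 TPM, and among the 14096 genes tested at that level 48.2% differed and 9.81% were at least 2-fold apart. Their median log2 ratio of replicate 1 over replicate 2 was 0.20, and that of all genes tested was 0.01.

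Lgr4 had the largest ratio of the 10. It had 8486 counts in replicate 1 against 5184 in replicate 2, and the log2 ratio after TMM scaling was 0.47 (95% interval 0.42 to 0.52, exact binomial test, Benjamini-Hochberg adjusted p = 2.06e-77). Wnt4 had 4310 counts in replicate 1 against 2994 in replicate 2, with a log2 ratio of 0.29 (0.22 to 0.35, exact binomial test, adjusted p = 3.9e-16). For Ctnnb1 the log2 ratio was 0.21 (0.18 to 0.24, exact binomial test, adjusted p = 6.53e-43). Axin2, with 1704 counts in replicate 1 against 1271 in replicate 2, had a log2 ratio of 0.18 (0.08 to 0.29, exact binomial test, adjusted p = 0.0021). These 4 genes were also called higher in replicate 1 with DESeq2 size factors, total counts, spike-in totals and the second quantification.

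Rnf43 was the gene that was lower in replicate 1. It had 278 counts in replicate 1 against 323 in replicate 2, with a log2 ratio of -0.45 (-0.69 to -0.22, exact binomial test, adjusted p = 5.23e-04). With total counts or spike-in totals its difference was no longer called. The remaining 5 genes did not pass the test, although Lef1 was called higher with the counts of the second quantification (log2 ratio 0.29), where 5 of the 10 genes were called higher and 1 lower, while 17.4% of 21821 genes tested were higher and 36.7% were called in either direction. Rspo3 had a log2 ratio of 0.21 (-0.02 to 0.44), Lef1 of 0.22 (0.02 to 0.42, exact binomial test, adjusted p = 0.0751), and Rspo1 of -0.11 (-0.62 to 0.40). Lgr5 and Znrf3 had ratios of 0.00 and 0.01, with intervals of -0.13 to 0.14 and -0.10 to 0.12. Rspo1, with 70 counts in replicate 1 against 64 in replicate 2, had the widest interval of the 10.

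The scaling sets how many of the 10 genes were called. With total counts 8 of the 10 were higher in replicate 1 and none lower, while 43% of all genes tested were higher and 55.7% differed in either direction. With spike-in totals 8 were again higher, while 53.3% of all genes were higher and 64.1% differed in either direction. Under total counts the 10 genes had a median of 0.43 and all genes 0.24, and under spike-in totals 0.55 and 0.37. A change of scaling shifts every gene by the same amount, so the gap of 0.19 between these medians is fixed by construction. Rnf43 was the one gene of the 10 whose interval with TMM scaling lay below 0.

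Markers of the adrenal zones and of other cells also differed between the libraries. The zona glomerulosa genes summed to 752 and 465 TPM in replicates 1 and 2, and 6 of 8 were called higher in replicate 1, with a median log2 ratio of 0.40. Among them Kcnk3, a potassium channel gene of the zona glomerulosa, was at 306 TPM in replicate 1 against 212 TPM in replicate 2, and Dab2, an endocytic adaptor marking the same zone, was at 190 TPM in replicate 1 against 104 TPM in replicate 2. The 4 zona fasciculata genes summed to 3626 and 1734 TPM in replicates 1 and 2, and all 4 were called higher, with a median of 0.58. The steroid 11-beta-hydroxylase gene Cyp11b1 was at 1423 TPM in replicate 1 against 715 TPM in replicate 2, and Akr1b7, an aldose reductase-like gene, was at 1394 TPM in replicate 1 against 421 TPM in replicate 2. The 7 capsule and stroma genes summed to 175 and 156 TPM in replicates 1 and 2, with 3 called higher and 2 lower and a median log2 ratio of 0.27. The 2 most abundant of them were the lower ones, Dcn with a log2 ratio of -0.34 and Col1a1 with -0.08, both genes of extracellular matrix proteins, but Dcn was not called with spike-in totals and Col1a1 was higher with total counts. The 5 medulla genes summed to 1596 and 1084 TPM, and all 5 were called higher, with a median of 0.28. The 4 macrophage genes summed to 42.9 and 53.0 TPM in replicates 1 and 2, and all 4 were called lower in replicate 1, with a median of -0.52; 2 of them were lower under spike-in totals and 3 under total counts. The part of the liver, muscle and other tissue in the differences of the 10 genes was not tested.

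**Figure D3:**
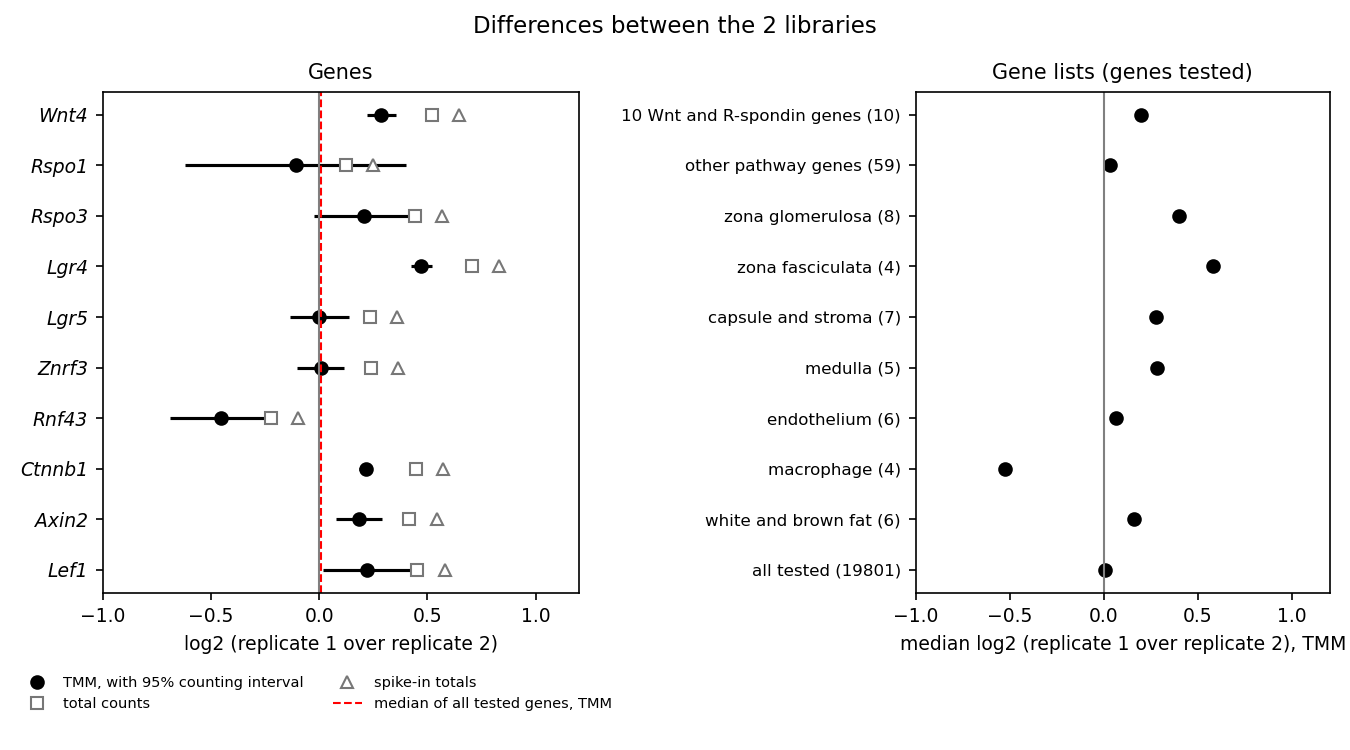
Log2 ratio of replicate 1 over replicate 2 for each of the 10 genes (left), with TMM scaling and its 95% counting interval (filled), total counts (squares) and spike-in totals (triangles), and the median of gene lists with TMM scaling (right, genes tested in brackets). Lgr4 lies furthest right at 0.47 and Rnf43 furthest left at -0.45. The list of the 10 genes lies at 0.20, between white and brown fat at 0.16 and capsule and stroma at 0.27, and all genes lie at 0.01.

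The calls among the other 69 genes of the pathway depended on the scaling. Of 59 tested, 13 were higher in replicate 1, 12 lower and 34 neither with TMM scaling, with a median log2 ratio of 0.03. With total counts 32 were higher and 7 lower, and with spike-in totals 38 were higher and 4 lower. The calls named for these genes below are those of TMM scaling. Among the Wnt genes, Wnt5a had 13.9 TPM in replicate 1 against 10.1 TPM in replicate 2 (log2 ratio 0.47), and Wnt2b had 5.08 and 2.73 TPM (log2 ratio 0.67), and both were called higher in replicate 1. Wnt5b was called lower, with 0.69 TPM in replicate 1 against 1.17 TPM in replicate 2. Wnt2 had 15 counts in replicate 1 against 47 in replicate 2, and Wnt9b had 5 in replicate 1 against 23 in replicate 2, and both were called lower in replicate 1 and were at least 2-fold apart. In mouse liver these 2 ligands are known from endothelial cells near the central vein. The pericentral liver genes summed to 516 and 1278 TPM in replicates 1 and 2, with the cytochrome gene Cyp2e1 at 83.3 TPM in replicate 1 against 718 TPM in replicate 2, while Glul, which the adrenal also expresses, was at 393 TPM in replicate 1 against 341 TPM in replicate 2. The part of liver in the Wnt2 and Wnt9b counts was not tested.

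Of the genes listed as receptors, secretion factors, dishevelled, destruction complex, TCF/LEF or co-activators, none was at least 2-fold apart. Of 12 Frizzled and LRP genes 10 were detected, with 2 called higher and 3 lower in replicate 1 with TMM scaling, 9 higher and 0 lower with total counts, and 11 higher and 0 lower with spike-in totals. The co-receptor Lrp5 was at 38.0 and 36.7 TPM in replicates 1 and 2 and was called lower with TMM scaling, but higher with total counts and spike-in totals. Its relative Lrp6 was at 30.1 TPM in replicate 1 against 26.6 TPM in replicate 2 and did not pass the test. Fzd4, a Frizzled receptor, had 11.1 TPM in replicate 1 against 10.4 TPM in replicate 2, and its direction flipped with the scaling as for Lrp5. Wls and Porcn, needed for Wnt secretion, had 14.1 and 3.13 TPM in replicate 1 and 12.2 and 2.15 TPM in replicate 2, and neither passed the test. Of 7 destruction complex genes 7 were called higher after scaling to spike-in totals and 6 after scaling to total counts. With TMM scaling 3 were called higher in replicate 1, namely Axin2, the casein kinase gene Csnk1a1 (75.7 and 58.6 TPM in replicates 1 and 2) and the kinase gene Gsk3a (32.6 TPM in replicate 1 against 25.0 TPM in replicate 2). Gsk3b, the other GSK3 kinase gene, had 20.9 TPM in replicate 1 against 18.1 TPM in replicate 2 and did not pass. Dvl1, a dishevelled gene that passes the signal on from Frizzled, had 22.6 and 20.1 TPM in replicates 1 and 2 and was called lower with TMM scaling, but higher with spike-in totals. Among the TCF/LEF genes Tcf7l2, at 8.38 TPM in replicate 1 against 10.4 TPM in replicate 2, was called lower, and Tcf7, at 14.4 and 10.9 TPM, was not called. The co-activator gene Bcl9l, at 22.7 TPM in replicate 1 against 22.8 TPM in replicate 2, was called lower with a log2 ratio of -0.36, and it was not called with spike-in totals. Pygo2, another co-activator gene, was called higher, with 15.4 and 10.6 TPM in replicates 1 and 2. Dvl3, Dvl2, Bcl9 and Tcf7l1, which act at the same steps, had 13.3, 7.56, 6.79 and 3.54 TPM in replicate 1 and 11.2, 5.41, 5.81 and 3.77 TPM in replicate 2, and none of them passed the test.

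With TMM scaling, 2 pathway genes at 1 TPM or more in both libraries were at least 2-fold apart, the secreted antagonists Frzb and Notum. With spike-in totals Notum no longer was, at a log2 ratio of -0.90, and Wnt2b was, at 1.02. Frzb, a soluble Frizzled-related inhibitor, was at 34.2 TPM in replicate 1 against 10.02 TPM in replicate 2, with a log2 ratio of 1.61 (exact binomial test, adjusted p = 1.45e-187). Notum, a secreted enzyme that inactivates Wnt proteins and is itself a target gene, was lower in replicate 1, with 3.22 TPM in replicate 1 against 6.78 TPM in replicate 2 and a log2 ratio of -1.26 (exact binomial test, adjusted p = 2.52e-22). Dkk3, a secreted Dickkopf family member, was called higher at 4.80 and 3.43 TPM in replicates 1 and 2. Wnt8b, with 13 counts in replicate 1 against 1 in replicate 2, was also at least 2-fold apart, with an interval from 0.73 to 8.87 on the log2 scale. Of the 11 feedback and target genes 10 were detected, and 3 were called higher and 2 lower in replicate 1 with TMM scaling, against 8 higher and 1 lower with either of the other scalings. This list also holds Axin2, Lgr5, Znrf3, Rnf43 and Lef1, which are among the 10 genes. With TMM scaling Axin2 was one of those higher and Rnf43 one of those lower. Tnfrsf19, a receptor gene known as a Wnt target, had 20.3 TPM in replicate 1 against 12.7 TPM in replicate 2 and was called higher, as was the inhibitor gene Apcdd1, with 16.1 TPM in replicate 1 against 12.2 TPM in replicate 2. Nkd1, a feedback inhibitor, had 18.5 and 15.2 TPM in replicates 1 and 2 and did not pass the test. Kremen1, a receptor for Dickkopf proteins, had 5.88 TPM in replicate 1 against 5.18 TPM in replicate 2, and Dkk1 and Kremen2 had 0 counts in both libraries of the first quantification. The second gave Dkk1 6.07 counts in replicate 1 against 3.02 in replicate 2, and Kremen2 5.08 against 6.39.

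The transcripts behind each gene level differed between the 10 genes. Wnt4, Rspo1 and Rspo3 each rested on a single coding transcript at 100% of the gene's TPM in both libraries. Lgr4-201, the coding transcript of Lgr4, held 90.5% in replicate 1 and 91.9% in replicate 2. In the second quantification it held 78.4% and 77.5%, and the processed transcript Lgr4-204 held 14.1% and 18.0%. Across 12734 nuclear protein-coding genes, coding transcripts held a median of 89.9% of a gene's TPM in replicate 1 and 90.2% in replicate 2, and retained intron transcripts held 2.28% and 2.30%.

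Ctnnb1, Rnf43, Lgr5 and Lef1 had a lower coding share than that median in both libraries. Ctnnb1 had 43.2% of its TPM on retained intron transcripts in replicate 1 and 42.9% in replicate 2, but 20.2% and 20.5% of its expected counts. Most of it lay on Ctnnb1-215, a retained intron transcript of 1 exon and 1292 nt at the end of the gene (chr9:120959216-120960507), which held 31.3% of the TPM in replicate 1 and 30.8% in replicate 2. It had 10.7% and 12.0% in the second quantification. Its last base is also that of the coding Ctnnb1-201, and how far reads of these transcripts can be told apart was not tested. The coding Ctnnb1-201 held 43.7% of the TPM in replicate 1 and 41.5% in replicate 2, and the coding Ctnnb1-214 held 9.91% and 12.1%. Coding transcripts of Lgr5 held 66.1% in replicate 1 and 64.0% in replicate 2, and those of Rnf43 held 39.5% and 51.9%. For Lgr5, the 607 nt processed transcript Lgr5-203 took 24.2% in replicate 1 and 22.2% in replicate 2 from 35.0 and 27.5 counts, and 9.89% and 3.42% in the second quantification.

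Znrf3 and Axin2 spread over several coding transcripts. Znrf3-201, Znrf3-203 and Znrf3-202 held 44.4%, 31.7% and 23.9% of the TPM in replicate 1 and 48.5%, 30.3% and 21.2% in replicate 2. Axin2-201 held 54.5% in replicate 1 and 56.9% in replicate 2, with the shorter Axin2-207 at 16.7% and 13.7% and Axin2-204 at 12.4% and 14.8%. In both genes the highest transcript was the same in both libraries. The second quantification put 5.95% on Znrf3-202 in replicate 1 and 7.92% in replicate 2, and 0% on Axin2-207 in both libraries.

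For Rnf43 and Lef1, the TPM comparison of the libraries turned on very short transcripts with few counts. They are shown because a level in TPM divides counts by length, so that few counts on a short transcript weigh heavily. Rnf43-205 (378 nt, chr11:87729374-87731113, plus strand) and Lef1-208 (345 nt, chr3:131113814-131184744, plus strand) are annotated as retained introns, and the capitals mark the bases that lie outside the exons of the gene's other transcripts, 26 in Rnf43-205 and 42 in Lef1-208. The first 150 bases of each transcript are given.
Rnf43-205: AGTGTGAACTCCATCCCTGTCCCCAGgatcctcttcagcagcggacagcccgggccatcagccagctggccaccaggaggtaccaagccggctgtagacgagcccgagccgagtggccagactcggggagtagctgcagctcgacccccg
Lef1-208: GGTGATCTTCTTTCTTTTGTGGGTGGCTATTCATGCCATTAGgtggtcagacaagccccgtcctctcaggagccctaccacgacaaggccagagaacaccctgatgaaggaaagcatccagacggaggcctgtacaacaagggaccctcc
The lower-case bases of both transcripts lie in coding sequence of other transcripts of the same gene. Rnf43-205 held 6.05 counts and 19.4% of the gene's TPM in replicate 1, and 0 counts in replicate 2. Lef1-208 held 0 counts in replicate 1, and 9.38 counts and 26.8% of the gene's TPM in replicate 2. The second quantification put 0% on each in both libraries.

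Without transcripts under 400 nt, a choice made after seeing these values, Rnf43 was at 2.38 TPM in replicate 1 against 2.70 TPM in replicate 2, and its log2 TPM ratio of replicate 1 over replicate 2 was -0.18, against 0.11 with all transcripts. The direction of the TPM ratio for Rnf43 thus turned round, and that of the second quantification was -0.25. Lef1 was at 4.33 and 3.07 TPM in replicates 1 and 2 without them, a log2 TPM ratio of 0.50 against 0.05 with all transcripts, while the second quantification gave 0.58 and the counts, unscaled, 0.46. The near-equal Lef1 levels of 4.34 and 4.20 TPM in replicates 1 and 2 therefore rest on 9.38 counts of 1 transcript. Longer transcripts also shifted, with Rnf43-209 at 16.4% in replicate 1 and 32.6% in replicate 2, Rnf43-206 at 29.5% and 33.9%, Rnf43-201 at 21.02% and 19.2%, and Lef1-201 at 70.1% and 58.8%. Lef1-202 held 12.0% in replicate 1 and 0% in replicate 2, and the 364 nt Rnf43-207 held 8.25% and 10.97%. In the second quantification Rnf43-209 held 9.70% in replicate 1 and 6.26% in replicate 2, so the higher share of this transcript in replicate 2 was not seen there.

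**Figure D4:**
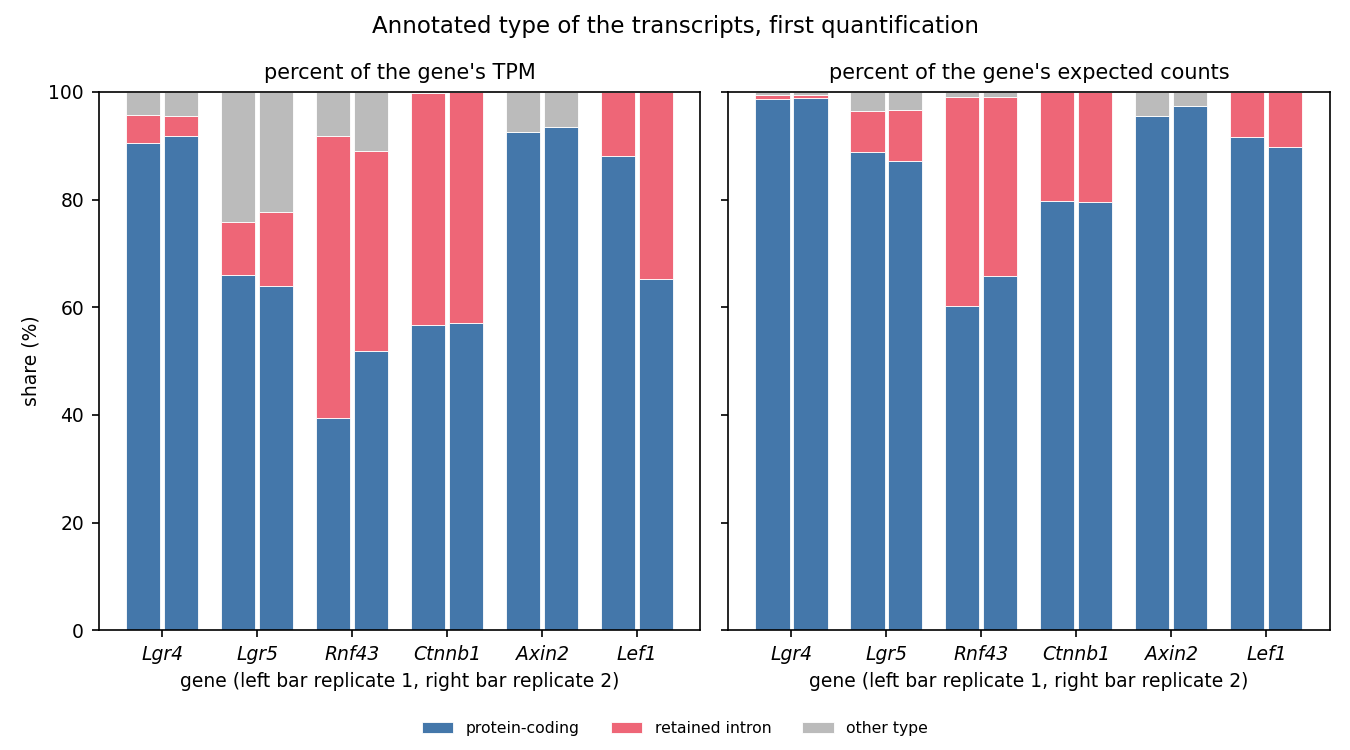
Percent of each gene's TPM (left) and of its expected counts (right) on transcripts annotated as protein-coding, retained intron or another type, first quantification, with replicate 1 as the left bar and replicate 2 as the right. Ctnnb1 has 43.2% of its TPM on retained introns in replicate 1 and 42.9% in replicate 2, but 20.2% and 20.5% of its counts; Lef1 has 11.8% of its TPM on them in replicate 1 and 34.7% in replicate 2.

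The TPM of the first quantification lay below that of the second for each of the 10 genes, with a median log2 ratio of -0.67 in replicate 1 and -0.68 in replicate 2. Over nuclear protein-coding genes the median was -0.79 in replicate 1 and -0.73 in replicate 2. The deposited posterior SD of the gene count, which is above 0 where reads could belong to several genes, was 0 for each of the 10 genes in both libraries. Of 8 genes that overlap one of the 10 on the other strand, Ulk4 over Ctnnb1 had 79 counts in replicate 1 against 75 in replicate 2, and Gm43352 over Lef1 had 7 and 6; whether the counting used the strand is not given in the sources used here.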

How the data were processed

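Total RNA libraries of adrenal gland, 2 replicates of 1 group, were analysed from tables that the authors deposited. Values are on the mm10 assembly with annotation M21, per the text file of each sample. For the aligner, the quantifiers and the strand setting, names and versions were not given in the sources used here. The first quantification holds the authors' expected counts, TPM and posterior SD per gene, the percent of a gene's TPM on each transcript, and a posterior mean TPM signal with credibility bounds, per the file headers. From the second quantification, the deposited estimated counts and TPM of transcripts were summed here per gene. TPM is relative to all entries, spike-ins included.

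Symbols came from GENCODE M21. Spike-ins held 0.839% of counts in replicate 1 and 0.915% in replicate 2, and entries that name no gene held 8 and 6.73 counts; both stayed out of tests. Expected counts on annotated genes, 34987819 in replicate 1 and 34835147 in replicate 2, were rounded to whole numbers. Each of 19801 genes with at least 10 counts had a two-sided exact binomial test against library sizes scaled by TMM of edgeR 4.0.16 (factors 1.08 and 0.923), with Benjamini-Hochberg adjustment, in scipy 1.17.1. The test was checked on simulated data that held counting error only, so this check does not cover the larger spread between these libraries. Alternatives were size factors of DESeq2 1.42.0, total counts, spike-in totals, no count minimum, the second quantification, other TPM minimums, posterior mean TPM, rescaling to protein-coding genes and leaving out a replicate. The 2 libraries differed beyond sampling noise: the chi-square of their counts per degree of freedom was 313.

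The members and lists were chosen with earlier results of these data known. The rule for naming took all 10 genes, the 3 highest of each other pathway list, pathway genes at least 2-fold apart, the 2 highest of each of 12 marker lists and transcripts with at least 10% of a gene's TPM. Of the marker genes it took, Kcnk3, Dab2, Cyp11b1, Akr1b7, Dcn, Col1a1, Alb, Cyp2e1, Glul, Aqp2 and Lrp2 are given singly. The others are given by their list's sum only. Axin1, Lgr4-204, Slc34a1, Umod, Dkk1, Wnt3a, Wnt7a and Wnt8a were named after their values were seen.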

Additional observations from a re-analysis of the deposited data

How the results depend on the processing

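All 10 genes were detected with a TPM minimum of 0.5 as well, but 6 with a minimum of 5. Of the 69 other pathway genes 48 were detected with a minimum of 0.5 and 27 with a minimum of 5. With total counts, and likewise with spike-in totals, 8 of the 10 were called, against 5 with TMM scaling, while 55.7% and 64.1% of all genes were called, against 39.1%. Their median log2 ratio was 0.43 and 0.55. The Wnt4 share of Wnt ligand TPM was 54.0% in the second quantification and 53.1% with posterior mean TPM, the Znrf3 share of the ligase TPM 71.5% and 69.2%, and the Lef1 share of TCF/LEF TPM 12.4% and 15.1%. With protein-coding transcripts only, the median log2 ratio of the first over the second quantification was -0.75. Leaving out 1 of the 2 replicates only returns the single-library shares given above. These were 54.6 to 57.0% for Wnt4, 68.6 to 75% for Rspo3 and 80.1 to 85.5% for Lgr4. They were 72.7 to 75.1% for Znrf3 and 14.2 to 14.4% for Lef1. The second quantification set the Lef1 share at 14.2% in replicate 1 and 10.6% in replicate 2. No gene of the 10 was at least 2-fold apart under any of the scalings tried. No paired analysis was possible because there was 1 group. Depth limits Rspo1, whose 70 counts in replicate 1 and 64 in replicate 2 leave an interval of -0.62 to 0.40 on the log2 scale, and intervals hold counting error only, so differences between animals are not covered. Without transcripts under 400 nt, added after seeing the data, the mean TPM of Rnf43 was 2.54 and that of Lef1 3.70. TPM rescaled to nuclear protein-coding genes gave higher means, from 3.34 for Rspo1 to 77.4 for Wnt4 and 684 for Ctnnb1. With protein-coding transcripts only, also added after seeing the data, the mean TPM was 132 for Ctnnb1, 1.44 for Rnf43 and 5.04 for Lgr5. In the second quantification the means ran from 1.92 for Rspo1 to 317 for Ctnnb1. The cause of these shifts was not tested.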
